A study of Mus musculus with 13 samples.

Results

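Eml1, Por, Galnt17, Dtnb, 9330188P03Rik and A230001M10Rik are 6 genes whose RNA in oligodendrocyte-like nuclei of the mouse hippocampus separated long-term from acute dietary restriction. They were chosen by symbol from 32285 genes in the matrices, because of that difference, and each was found once. Single-nucleus RNA sequencing was run on whole frozen hippocampus of female mice, and UMIs, which count single RNA molecules, were tabulated per gene and nucleus. All animals were of the same hybrid strain, written C3HB6F1 in the sample labels and C3B6F1 in the series description. Food was given ad libitum to 3 young mice of 5 months and to 3 old mice of 24 months. Acute restriction began at 20 months in 3 mice, which had thus been restricted for 4 months when sampled at 24 months. Long-term restriction began at 5 months in 4 mice, which had been restricted for 19 months when sampled at 24 months. The labels number the samples without stating that each came from a separate mouse, so p-values measure the spread between these 13 libraries, taken here as 1 mouse each.

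Oligodendrocytes wrap axons in myelin, a membrane rich in cholesterol and glycolipid, and keep making its lipids throughout adult life. Eml1 encodes an EMAP-like protein that binds microtubules, and Dtnb encodes beta-dystrobrevin, a cytoplasmic part of the dystrophin-associated complex that ties the cell surface to its laminin matrix. Por encodes cytochrome P450 reductase, which hands electrons from NADPH to microsomal P450 enzymes and to squalene monooxygenase of cholesterol synthesis. Galnt17 belongs to the polypeptide GalNAc-transferase family, enzymes that start O-linked sugar chains on proteins in the Golgi. A230001M10Rik and 9330188P03Rik are annotated as non-coding RNAs, a lincRNA and a processed transcript.

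In the GRCm38 annotation Eml1 (ENSMUSG00000058070) spans 168.66 kb on the plus strand of chromosome 12 and Dtnb (ENSMUSG00000071454) 209.42 kb on the plus strand of the same chromosome. On chromosome 5, Por (ENSMUSG00000005514) spans 65.3 kb on the plus strand and Galnt17 (ENSMUSG00000034040) 436.42 kb on the minus strand. A230001M10Rik (ENSMUSG00000105891) spans 182.73 kb of chromosome 3 and 9330188P03Rik (ENSMUSG00000115149) 42.6 kb of chromosome 14, both on the plus strand. Promoter windows are shown because they hold the sequence next to the transcription starts, with the motifs found in capitals. Each runs 5′ to 3′ on the gene's strand from 250 bases before to 50 after a RefSeq start (GRCm38.p6). RefSeq entries were found for 5 of the 6 genes; Eml1 had 5 listed starts and Dtnb 4, of which the first is shown. Capitals mark every match, on either strand, to a CCAAT box (CCAAT) or a GC box (GGGCGG), the only searched motifs found in these 5 windows. The Eml1 window is chr12:108370903-108371202 (plus strand), that of Por chr5:135688895-135689194 (plus strand), that of Galnt17 chr5:131307473-131307772 (minus strand), that of Dtnb chr12:3572141-3572440 (plus strand) and that of A230001M10Rik chr3:102262155-102262454 (plus strand). Those of Por and Galnt17 lie inside the annotated genes, downstream of the annotated starts.
Eml1: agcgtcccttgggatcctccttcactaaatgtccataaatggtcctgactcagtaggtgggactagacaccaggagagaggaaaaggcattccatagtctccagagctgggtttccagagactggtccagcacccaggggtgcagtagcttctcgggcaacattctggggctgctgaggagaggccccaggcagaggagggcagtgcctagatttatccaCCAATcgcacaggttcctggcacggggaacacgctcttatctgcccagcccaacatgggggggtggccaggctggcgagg
Por: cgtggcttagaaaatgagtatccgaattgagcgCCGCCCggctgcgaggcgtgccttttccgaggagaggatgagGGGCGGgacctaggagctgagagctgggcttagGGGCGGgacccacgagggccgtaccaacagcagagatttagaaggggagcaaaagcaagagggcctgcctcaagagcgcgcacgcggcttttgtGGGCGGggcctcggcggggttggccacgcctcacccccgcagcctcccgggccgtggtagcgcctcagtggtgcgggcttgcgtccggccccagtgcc
Galnt17: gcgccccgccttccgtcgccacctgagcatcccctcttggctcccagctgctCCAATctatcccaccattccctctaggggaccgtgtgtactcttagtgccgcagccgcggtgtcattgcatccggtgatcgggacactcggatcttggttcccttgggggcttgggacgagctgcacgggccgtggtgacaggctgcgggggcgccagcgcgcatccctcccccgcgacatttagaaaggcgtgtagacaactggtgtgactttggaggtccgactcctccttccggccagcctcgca
Dtnb: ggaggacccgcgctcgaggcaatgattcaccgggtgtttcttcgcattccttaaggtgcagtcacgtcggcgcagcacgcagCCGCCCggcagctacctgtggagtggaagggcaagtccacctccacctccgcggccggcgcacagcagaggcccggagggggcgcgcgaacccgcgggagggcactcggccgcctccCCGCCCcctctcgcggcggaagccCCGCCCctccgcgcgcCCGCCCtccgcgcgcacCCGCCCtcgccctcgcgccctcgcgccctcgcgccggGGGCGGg
A230001M10Rik: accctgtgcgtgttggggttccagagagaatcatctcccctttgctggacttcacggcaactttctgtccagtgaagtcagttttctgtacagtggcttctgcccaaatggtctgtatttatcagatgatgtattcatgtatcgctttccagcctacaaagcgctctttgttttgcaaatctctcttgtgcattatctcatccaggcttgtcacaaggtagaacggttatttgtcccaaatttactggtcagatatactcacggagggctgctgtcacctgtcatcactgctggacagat

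The Por window held 4 GC boxes and the Dtnb window 6, whereas the windows of Eml1 and Galnt17 held 1 CCAAT box each and that of A230001M10Rik neither motif. Among 32851 RefSeq promoter windows of this length, with 1 chromosome that holds no member left out, 35.7% held a GC box and 37.4% a CCAAT box. GC content was 58.3% for Eml1, 67.3% for Por, 64.3% for Galnt17, 76.7% for Dtnb and 46% for A230001M10Rik. No window shown held an E-box (CACGTG, in 7.15% of all windows), a TATA box (TATAAA, 13.6%), a FoxO site (GTAAACA, 3.65%) or a glucocorticoid half-site (AGAACA, 19%), each searched on both strands. The full glucocorticoid element, which contains the half-site, was in 0.00913% of all windows and in none shown. At the starts not shown, Eml1 windows 2 and 3, which overlap, held the same glucocorticoid half-site and window 4 another, window 4 also a TATA box, and windows 4 and 5 a CCAAT box. Dtnb window 2 held 2 GC boxes and window 4 none, and window 3, which overlaps the window shown, held the same 6. A match is a description of letters and not evidence of binding.

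The 13 libraries held 742437104 UMIs, 38546292 to 80538090 each, in 3524 to 12368 barcodes. After filtering, 98041 nuclei remained, of which 83432 fell in clusters that could be named from marker lists, written as X-like. Oligodendrocyte-like nuclei numbered 10008, all from 1 cluster, and UMIs of all 12 oligodendrocyte markers (among them Mbp and Mog) were present in every library, at a summed level of 18125 to 22921 CPM, counts scaled to a common library size. Sums per library held 110 to 1652 of these nuclei in old ad libitum mice, 163 to 1547 under acute restriction, 183 to 994 under long-term restriction and 47 to 732 in young mice, with median UMIs per nucleus of 1988 to 3169, 1577 to 1889, 1673 to 2299.5 and 1182 to 1661. In every group the library numbered 1 held the fewest of these nuclei, and every other library held at least 624. Between 4 and 40 barcodes were shared by any pair of libraries, at most 0.471% of the smaller one.

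In oligodendrocyte-like nuclei Eml1, A230001M10Rik and 9330188P03Rik were low under acute restriction and near the old ad libitum level under long-term restriction, while Por and Dtnb were high under acute restriction and lower under long-term restriction. Galnt17 differed from these 5, since its acute level lay close to that of old ad libitum mice and its long-term level was the low one. The difference between the restricted groups chose the 6 genes, so it is given as a description without a test. All 6 were among 13 of 11368 genes (0.114%) called in edgeR between those groups, and nothing is read from their count. Just inside the threshold of an adjusted p of 0.05 were Por and Robo1 (0.0443 each, edgeR), and just outside it was Pkd2l1 (adjusted p 0.0562, edgeR). The other called genes were Plin4, Phyhd1, Pdk4, Hif3a, E230001N04Rik and Gm22146. Levels below are log2 CPM with a prior count of 2 from UMIs summed per library and class, listed in the order of replicate numbers, and differences are edgeR log2 fold changes with their standard errors (SE).

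**Figure D1:**
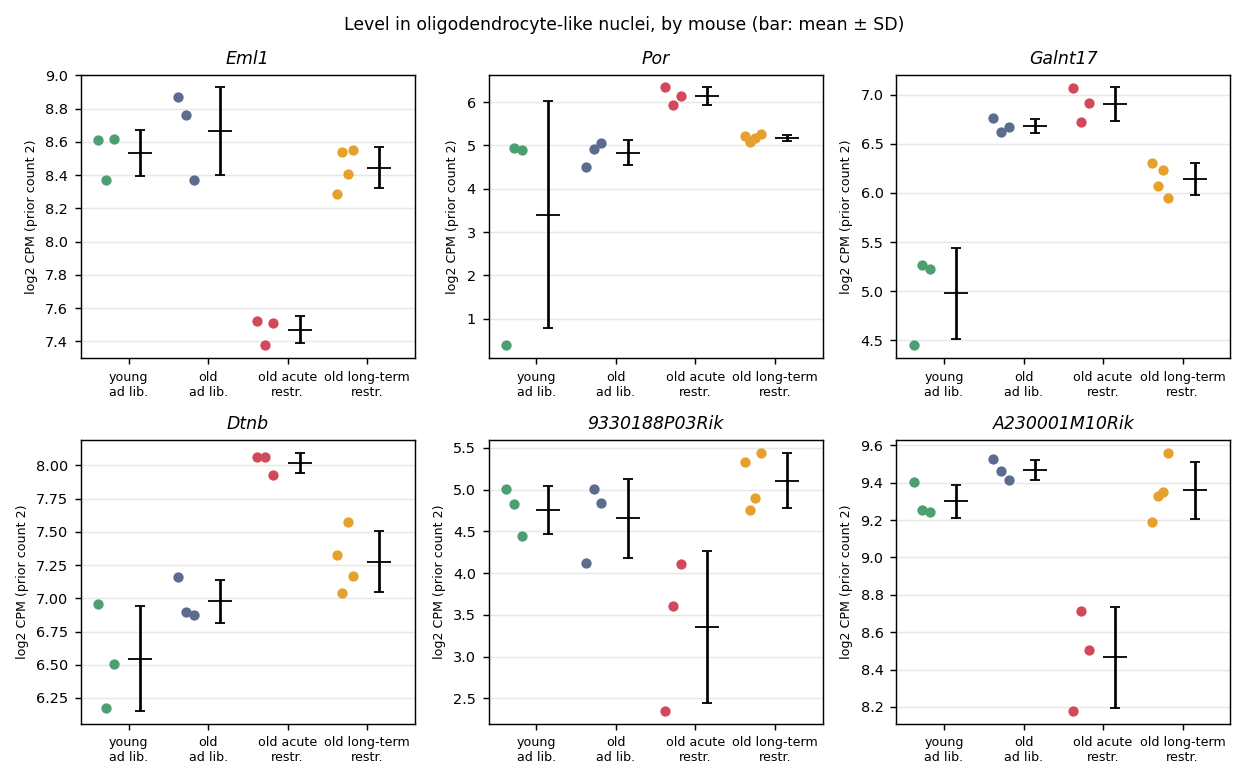
Level of each gene in oligodendrocyte-like nuclei, in log2 CPM (prior count 2, y axis) for the 4 groups (x axis), 1 point per library with the mean ± SD as a bar. In every panel the acute points lie apart from the long-term points, and 1 young library with 0 UMIs of Por lies far below the others at 0.38.

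Eml1 measured 7.52, 7.37 and 7.51 in the acute libraries against 8.29, 8.54, 8.41 and 8.55 in the long-term ones. All 3 acute libraries lay below every other library of the study, and the acute group had the narrowest spread (7.47 ± 0.08, SD, n = 3). Old ad libitum mice had 8.87, 8.76 and 8.37, and young mice 8.61, 8.37 and 8.62, so that long-term, old and young values overlapped. The log2 fold change of Eml1 was 1.01 (SE 0.14) for long-term minus acute restriction, -1.21 (SE 0.14) for acute restriction minus old ad libitum and -0.20 (SE 0.13) for long-term restriction minus old ad libitum. These differences rested on 48 to 1466 UMIs of Eml1 per sum, and the smallest young sum held 38.

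Dtnb moved the other way, with 8.06, 8.07 and 7.93 in the acute libraries and 7.32, 7.04, 7.57 and 7.17 in the long-term libraries. The acute libraries were again tightly grouped (8.02 ± 0.08, SD, n = 3) and lay above all others. Values in old ad libitum mice were 7.16, 6.89 and 6.87, within or just under the long-term range, and young mice had 6.96, 6.17 and 6.51. For Dtnb the log2 fold change was -0.73 (SE 0.14) between long-term and acute restriction, 1.08 (SE 0.15) between acute restriction and old ad libitum, and 0.34 (SE 0.15) between long-term restriction and old ad libitum.

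Por, the electron donor of the microsomal P450 enzymes, stood at 6.34, 5.94 and 6.14 in the acute libraries and at 5.21, 5.09, 5.16 and 5.26 in the long-term ones. Both restricted groups were above the old ad libitum libraries, which had 4.51, 4.92 and 5.06, although the nearest long-term and old values were close. Young libraries 2 and 3 had 4.93 and 4.89, and young library 1 held 0 UMIs of Por in 47 nuclei, where a count of 0 allows up to 33.9 CPM. The value of 0.38 in that library is set by the prior count, and the limit covers counting error only. The log2 fold change of Por was -0.93 (SE 0.20) for long-term minus acute, 1.18 (SE 0.21) for acute restriction minus old ad libitum and 0.25 (SE 0.21) for long-term restriction minus old ad libitum, on at most 188 UMIs per sum.

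Galnt17 measured 7.07, 6.73 and 6.92 in acute libraries, above the long-term ones at 6.31, 6.07, 6.24 and 5.94. Its old ad libitum values of 6.76, 6.62 and 6.67 overlapped the acute group and lay above every long-term library. Young mice were lowest at 4.45, 5.26 and 5.23, with only 2 to 37 UMIs of Galnt17 per young sum. The log2 fold change was -0.76 (SE 0.15) for long-term minus acute restriction, 0.20 (SE 0.15) for acute restriction minus old ad libitum and -0.56 (SE 0.15) for long-term restriction minus old ad libitum.

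The lincRNA A230001M10Rik is itself a leading gene of the oligodendrocyte-like cluster, so its presence there is no finding. It stood at 8.18, 8.71 and 8.50 in the acute libraries and at 9.19, 9.33, 9.35 and 9.56 in the long-term libraries. Old ad libitum libraries had 9.53, 9.46 and 9.42 and young libraries 9.40, 9.25 and 9.25, so every unrestricted and long-term library lay above every acute one. Differences were 0.86 (SE 0.13) for long-term minus acute, -0.95 (SE 0.13) for acute restriction minus old ad libitum and -0.09 (SE 0.12) for long-term restriction minus old ad libitum, as log2 fold changes of A230001M10Rik.

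The processed transcript 9330188P03Rik was the least covered member, with 1 to 105 UMIs per sum. Acute libraries had 2.35, 3.61 and 4.11, the first from 1 UMI, against 5.33, 4.76, 4.89 and 5.44 under long-term restriction. Old ad libitum libraries had 4.12, 5.01 and 4.84, the lowest of which came within rounding of the highest acute value, and young libraries had 5.00, 4.82 and 4.45. The log2 fold change of 9330188P03Rik was 1.38 (SE 0.27) for long-term minus acute, -1.14 (SE 0.28) for acute restriction minus old ad libitum and 0.24 (SE 0.24) for long-term restriction minus old ad libitum.

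Between acute restriction and old ad libitum, the libraries of 5 of the 6 members did not overlap, Galnt17 being the exception, beside 18.1% of all tested genes. Between long-term restriction and old ad libitum, the groups did not overlap for 2 members, Por (higher) and Galnt17 (lower), beside 8.86% of all genes. Long-term and acute libraries did not overlap for all 6, beside 6.02% of all genes, which the choice of the genes fixes. The contrasts share the acute, long-term or old ad libitum libraries, so these are the same measurements seen from different sides and were not tested.

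Shares of nuclei describe the same UMIs at matched depth and give no separate support. Each oligodendrocyte-like nucleus was thinned to 1000 UMIs, which left out 35 nuclei of old ad libitum mice, 71 under acute restriction, 33 under long-term restriction and 213 of young mice. A230001M10Rik was then detected in 22.2%, 31.0% and 29.2% of nuclei in the acute libraries and in 39.4%, 43.2%, 42.5% and 47.7% in the long-term libraries, and without thinning in 31.9% to 48.2% and 55.7% to 70.6%. In CA1 pyramidal neuron-like nuclei, whose median depth was 10399.5 UMIs against 1885.0 in oligodendrocyte-like nuclei, the unthinned share of A230001M10Rik averaged 0.901% under long-term restriction, below every share of it in oligodendrocyte-like nuclei. Eml1 was detected in 14.1%, 13.1% and 14.4% of thinned nuclei in the acute libraries and in 22.02%, 27.2%, 23.6% and 25.6% in the long-term ones. In microglia-like nuclei (median depth 1402.0 UMIs) the thinned share of Eml1 was 0% to 1.44% over all libraries. A UMI of Eml1 or A230001M10Rik was thus detected in a smaller share of nuclei in each of the 3 acute libraries than in any long-term one.

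Dtnb was found in 21.4%, 22.01% and 21.1% of thinned nuclei of the acute libraries and in 12.8%, 11.6%, 15.7% and 12.02% of the long-term ones. Por was found in 7.83%, 5.95% and 6.34% against 3.50%, 3.12%, 3.34% and 3.59%, and Galnt17 in 10.4%, 9.04% and 10.8% against 6.36%, 5.98%, 7.10% and 5.51%. For these 3 genes every acute library exceeded every long-term one. Microglia-like nuclei, for comparison, had Dtnb in 3.97% to 5.08% under acute and 4.15% to 7.09% under long-term restriction, Por in 3.88% to 5.49% and 2.18% to 5.10%, and Galnt17 in 5.22% to 8.82% and 3.79% to 9.10%. The long-term shares of Por and Galnt17 in oligodendrocyte-like nuclei lay within the long-term ranges of microglia-like nuclei, and those of Por lay under the acute range. The part of free RNA in droplets was not tested. The share for 9330188P03Rik was 0%, 0.974% and 1.49% against 2.75%, 2.30%, 2.50% and 3.59%, near the level of 1 UMI in the smaller libraries, and no change is read from it.

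**Figure D2:**
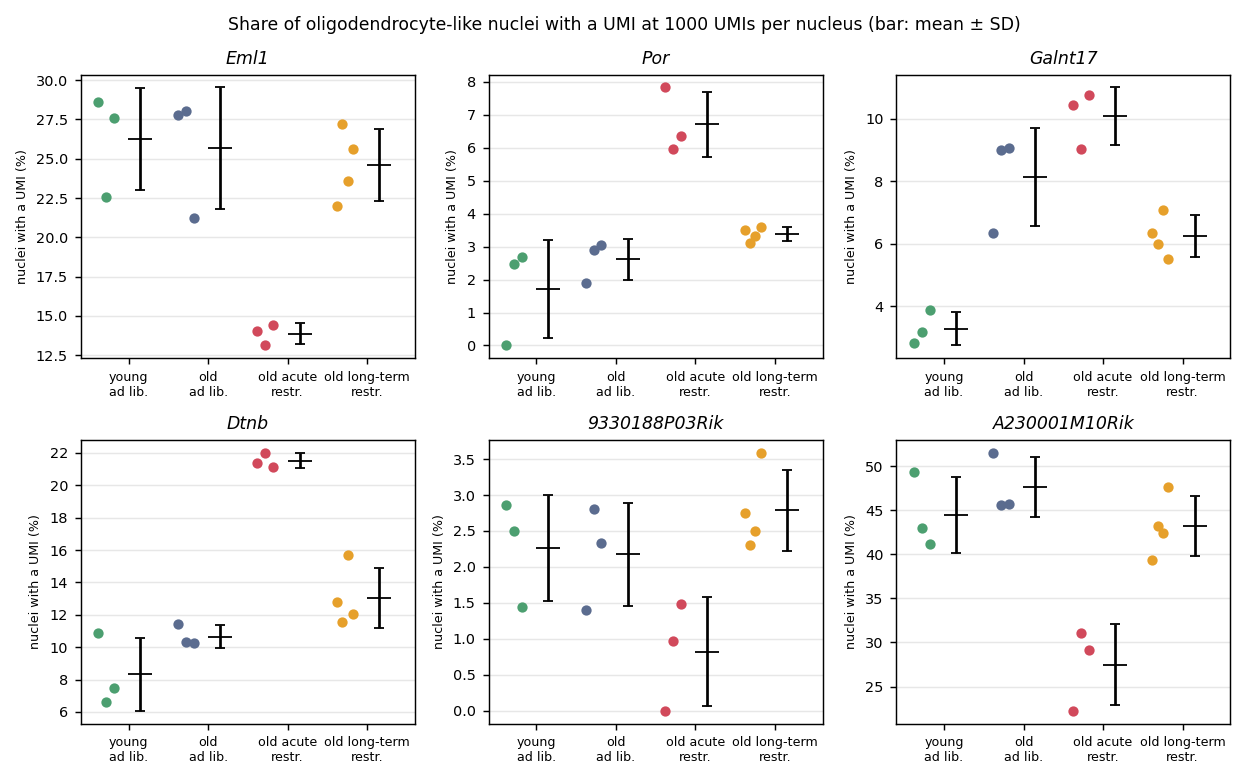
Percent of oligodendrocyte-like nuclei with at least 1 UMI of each gene after thinning to 1000 UMIs (y axis) for the 4 groups (x axis), 1 point per library with the mean ± SD as a bar. The acute libraries had the lowest shares for A230001M10Rik (22.2% to 31.0%) and Eml1 (13.1% to 14.4%) and the highest for Dtnb and Por.

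Ageing, the difference between old and young mice fed ad libitum, used neither restricted group in its fold change and was therefore tested. The spread behind its SE and p-values was estimated over all 13 libraries, among them those that chose the members. The test was thus not wholly separate from that choice. Galnt17 rose with age in oligodendrocyte-like nuclei, by a log2 fold change of 1.50 (SE 0.20, adjusted p 3.63e-05, edgeR), and all 3 old libraries lay above all 3 young ones. After thinning to 1000 UMIs it was detected in 2.82% to 3.89% of these nuclei in young and 6.35% to 9.08% in old libraries, beside 2.83% to 4.11% and 1.10% to 8.61% in microglia-like nuclei. It was the only member of 6 called, while 7.85% of all 11368 genes were called. Dtnb had a log2 fold change of 0.53 (SE 0.18, adjusted p 0.0725, edgeR), with 1 young library above 2 old ones. In edgeR Dtnb was called with a replicate block, without the filter on low counts or without young library 1. The values for Eml1 (0.14, SE 0.14, adjusted p 0.618), Por (0.13, SE 0.27, adjusted p 0.839), 9330188P03Rik (0.20, SE 0.31, adjusted p 0.773) and A230001M10Rik (0.18, SE 0.14, adjusted p 0.473) did not pass the test in edgeR. Groups did not overlap for Galnt17 and A230001M10Rik, both higher in old mice, beside 22.9% of all genes. Median UMIs per nucleus were also higher in old (1988 to 3169) than in young mice (1182 to 1661). In the same sums the marker list of dentate granule neurons (9 markers) was higher in old mice, 4860 to 5073 CPM against 3735 to 4670, as were those of CA3 neurons (8 markers, 674 to 772 against 509 to 561), subicular or cortical neurons (9 markers, 628 to 713 against 462 to 600) and oligodendrocyte precursors (9 markers, 235 to 256 against 204 to 231). The mural cell list (9 markers) was lower at 6.24 to 12.4 against 18.8 to 22.6 CPM, the other 12 lists overlapped, and their part in the result was not tested. A sum can rest on few markers, and whether oligodendrocytes express some of them was not tested. With median UMIs per nucleus as a covariate Galnt17 kept a log2 fold change of 1.55 (adjusted p 0.0448, edgeR) and Dtnb had 0.09, and with the trend on gene length removed Galnt17 had 0.91 (adjusted p 0.00454, edgeR) and Dtnb 0.14.

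The members were then followed in the 9 other classes with enough nuclei, whose sums had no part in choosing them but come from the same libraries. Whether free oligodendrocyte RNA carried part of the chosen difference into these classes was not tested. Of 54 pairs of a member and a class, 36 passed the filter on low counts, and the other 18 were too sparse to test. Of the UMIs of A230001M10Rik in named nuclei, 95.5% came from oligodendrocyte-like ones, with a mean level of 9.16 there, against 1.23 in inhibitory neuron-like and -0.03 in dentate granule neuron-like nuclei. Oligodendrocyte-like nuclei also had the highest mean level of Eml1, 8.29 ± 0.50 (SD, n = 13), followed by endothelial-like (7.60 ± 0.28, n = 9) and CA1 pyramidal neuron-like nuclei (6.54 ± 0.28, n = 13). The CA3, inhibitory, granule neuron-like and oligodendrocyte precursor-like means of Eml1, from 5.64 to 5.82, lay within their spread of one another. Among the classes tested for it, astrocyte-like nuclei were lowest at 4.80 ± 0.35 (SD, n = 13). Microglia-like nuclei, too sparse to test for Eml1, held 7.55 CPM of it pooled over libraries, against 26.2 in astrocyte-like ones.

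Galnt17 was highest in CA3 pyramidal (10.27 ± 0.40, SD, n = 13), dentate granule (10.24 ± 0.23, n = 13), mural (10.03 ± 0.54, n = 9) and CA1 pyramidal neuron-like sums (9.96 ± 0.42, n = 13), whose spreads overlapped. Oligodendrocyte-like nuclei, at 6.17 ± 0.78 (n = 13), held only 0.333% of its UMIs in named nuclei. Among the classes tested for it, Dtnb ran from 8.25 ± 0.23 in inhibitory neuron-like to 6.76 ± 0.29 in astrocyte-like nuclei (n = 13 each), with 7.21 ± 0.58 in oligodendrocyte-like ones. In microglia-like nuclei, where it was not tested, Dtnb had 51.2 CPM pooled over libraries, against 109 in astrocyte-like ones. Por was highest in astrocyte-like nuclei (6.07 ± 0.35, n = 13) among the classes tested for it, and the other means, 4.90 to 5.34, lay within their spread of one another. Fibroblast-like nuclei, too few for a fit, had a median of 152 CPM of Por over 9 libraries. Levels of 9330188P03Rik were 5.53 ± 0.70 in astrocyte-like, 5.31 ± 0.45 in oligodendrocyte precursor-like, 4.52 ± 0.83 in oligodendrocyte-like, 3.77 ± 0.28 in inhibitory neuron-like and 1.96 ± 0.51 in dentate granule neuron-like nuclei (n = 13 each), and the first 3 overlapped.

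**Figure D3:**
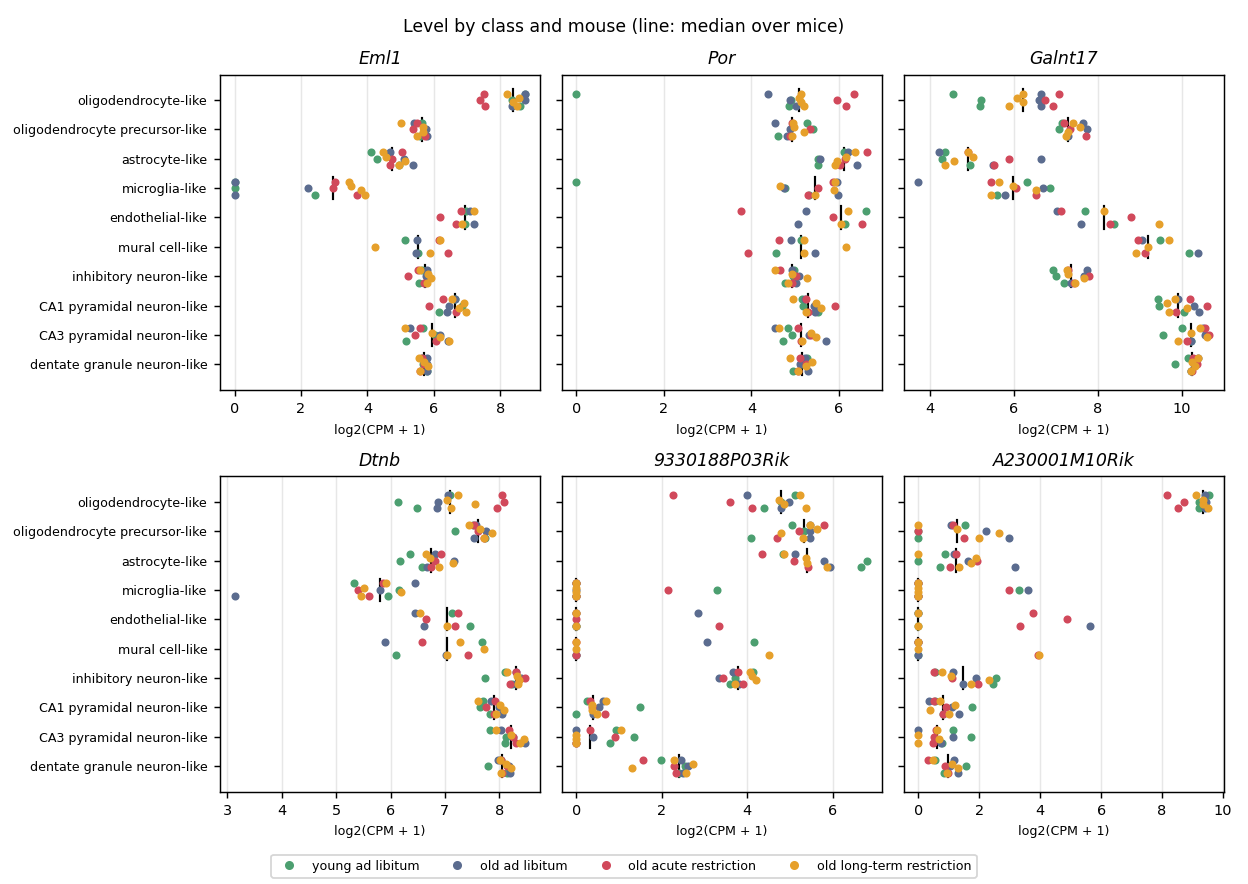
Level of each gene as log2(CPM + 1) (x axis) in the 10 classes tested (y axis), 1 point per library with at least 20 nuclei, coloured by group, with the median over libraries as a line. A230001M10Rik stands out in oligodendrocyte-like nuclei and Galnt17 is highest in pyramidal, granule neuron-like and mural cell-like ones.

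Outside oligodendrocyte-like nuclei no member was called between long-term and acute restriction in any of the 36 pairs (edgeR, adjusted p at least 0.996), with 2 pairs at an unadjusted p under 0.05 and 0 called by DESeq2. Across all genes, 0.0215% were called in oligodendrocyte precursor-like nuclei and 0% in each of the 8 other classes. Both pairs were Eml1, with a log2 fold change of 0.48 (SE 0.16) in CA1 pyramidal and 0.27 (SE 0.12) in inhibitory neuron-like nuclei. In edgeR an unadjusted p under 0.05 was met there by 518 of 14821 and 318 of 13336 genes, so nothing is read from the 2 pairs. In the CA1 sums Eml1 measured 6.29, 5.96 and 6.63 in acute libraries and 6.61, 6.81, 6.86 and 6.90 in long-term ones, which overlapped in 1 library of each group. Eml1 was higher under long-term restriction in 5 of 7 classes, from -0.08 to 0.48 in log2 fold change, and lay below its oligodendrocyte-like value of 1.01 in each. Of the 36 pairs of all members, 22 were positive.

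Por stayed between -0.23 and 0.05 in 6 classes, Dtnb between -0.25 and 0.23 in 8 classes, and 9330188P03Rik between 0.03 and 0.45 in 4 classes. Galnt17 ranged from -0.75 to 0.77 over 9 classes, and A230001M10Rik had 0.44 (SE 0.53) in granule neuron-like and 0.47 (SE 0.86) in inhibitory neuron-like ones. The 95% interval of the difference left out the oligodendrocyte-like value in 6 of 6 classes for Por, 6 of 7 for Eml1, 6 of 8 for Dtnb, 6 of 9 for Galnt17, 4 of 4 for 9330188P03Rik and 0 of 2 for A230001M10Rik. These intervals use the SE and the normal quantile and are narrower than the edgeR test implies, so the counts could be lower. The astrocyte-like interval of 9330188P03Rik ended at 1.34, just under the oligodendrocyte-like 1.38. Since the oligodendrocyte-like value chose the genes, this describes how narrow the other estimates were, and the difference between classes was not tested. In granule neuron-like nuclei, the class with the most nuclei (40422), the interval for Eml1 ran from -0.15 to 0.24, for Dtnb from -0.19 to 0.26, for Por from -0.23 to 0.26 and for Galnt17 from -0.24 to 0.26.

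**Figure D4:**
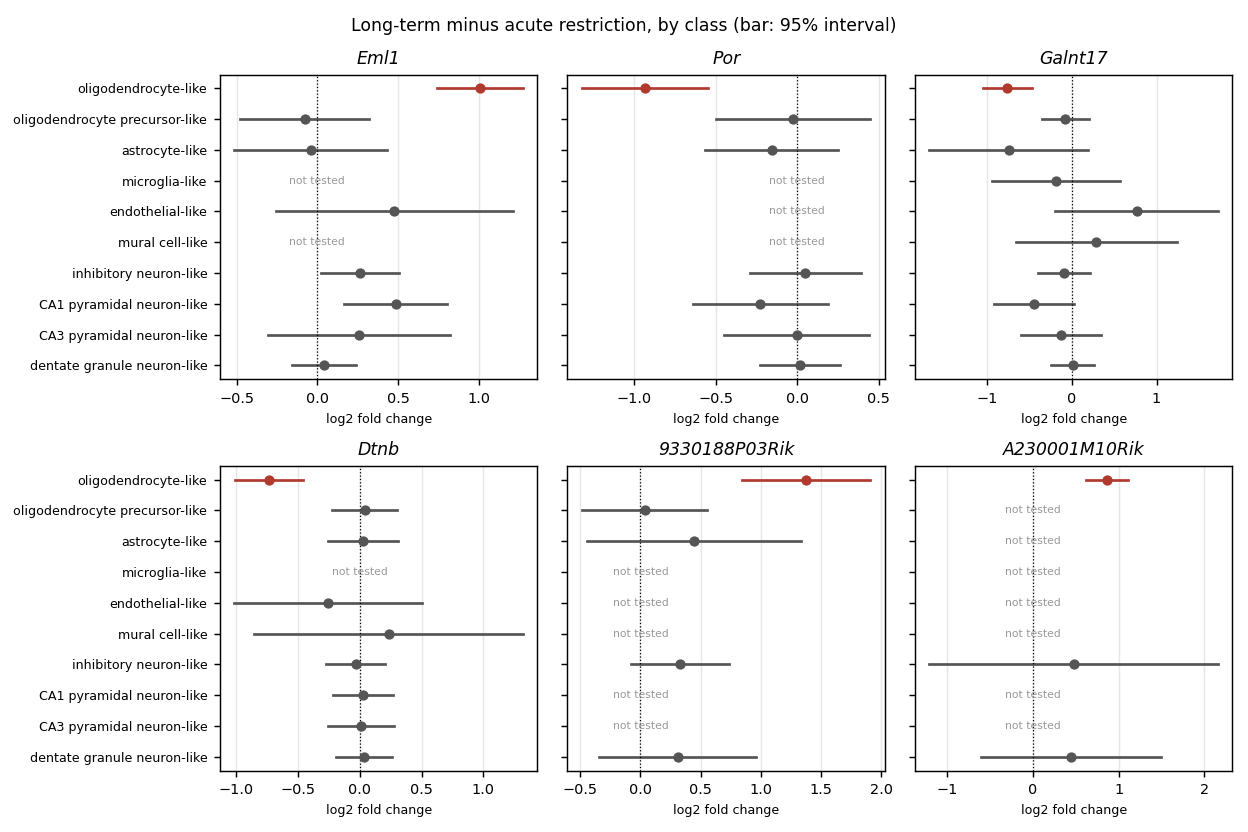
Log2 fold change of long-term minus acute restriction (x axis) by class (y axis) for each gene, with its normal 95% interval as a bar and oligodendrocyte-like nuclei in red. The red values, which chose the genes, run from -0.93 for Por to 1.38 for 9330188P03Rik, and the intervals of granule neuron-like nuclei include 0 for all 6 genes.

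Acute restriction against old ad libitum gave 0 calls among the 36 pairs (edgeR, lowest adjusted p 0.904), with 0 at an unadjusted p under 0.05 and 0 by DESeq2. Of all genes, 0.129% were called in oligodendrocyte precursor-like, 0.0436% in astrocyte-like, 0.0256% in microglia-like and 0.0237% in dentate granule neuron-like nuclei, and 0% in the other 5 classes. Eml1 had a negative log2 fold change in 7 of 7 classes, from -0.56 to -0.09, none of which passed the test. The classes share the same acute libraries and signs over all genes were not counted, so nothing is read from this. Long-term restriction against old ad libitum likewise gave 0 calls (edgeR, lowest adjusted p 0.898), with 2 pairs at an unadjusted p under 0.05 and 0 by DESeq2, beside 0.119% of all genes called in oligodendrocyte precursor-like, 0.0511% in microglia-like and 0% in the other 7 classes. The 2 pairs were Galnt17 in endothelial-like and 9330188P03Rik in inhibitory neuron-like nuclei, where 74 of 2526 and 379 of 13336 genes met that unadjusted p in edgeR.

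Ageing gave 0 calls among the 36 pairs in edgeR (lowest adjusted p 0.105), with 10 at an unadjusted p under 0.05 and 2 called by DESeq2, both in inhibitory neuron-like nuclei. DESeq2 called 477 of all 13336 genes there, and an unadjusted p under 0.05 was met by 2630 of them and by 4583 of 16901 genes in granule neuron-like nuclei. By edgeR, of all genes 3.22% were called in dentate granule neuron-like, 1.97% in oligodendrocyte precursor-like, 1.07% in microglia-like, 0.383% in astrocyte-like and 0.0975% in inhibitory neuron-like nuclei, and 0% in the other 4 classes. Galnt17 came nearest in inhibitory neuron-like nuclei, where young libraries had 6.84, 6.88 and 7.15 and old libraries 7.78, 7.69 and 7.36. Its log2 fold change there was 0.67 (SE 0.17, adjusted p 0.105 in edgeR and 0.00807 in DESeq2). In precursor-like nuclei Galnt17 had 0.47 (SE 0.16, adjusted p 0.107, edgeR) and in granule neuron-like nuclei 0.38 (SE 0.14, adjusted p 0.112, edgeR). The normal 95% interval of its ageing difference, narrower than the edgeR test implies, left out the oligodendrocyte-like 1.50 in 8 of 9 classes. The difference between classes was not tested. The interval that held 1.50 was that of astrocyte-like nuclei, 0.07 to 2.23. Galnt17 had its largest value outside oligodendrocyte-like nuclei there, 1.15 (SE 0.55, adjusted p 0.367, edgeR).

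Among positive values, Dtnb had its largest ageing difference in astrocyte-like nuclei, at 6.33, 6.23 and 6.56 in young and 6.91, 7.19 and 6.63 in old libraries. That was a log2 fold change of 0.58 (SE 0.16, adjusted p 0.130, edgeR), and the inhibitory neuron-like value of 0.39 (SE 0.13) had an adjusted p of 0.143 in edgeR and 0.0469 in DESeq2. A term for libraries numbered 1 gave calls with age for Galnt17 in inhibitory (adjusted p 0.0275, edgeR) and granule neuron-like nuclei (adjusted p 0.0479, edgeR) and for Dtnb in astrocyte-like nuclei (adjusted p 0.0417, edgeR). Eml1 was positive in 7 of 7 classes, from 0.08 to 0.47, without a call. Of the 36 pairs of all members, 27 were positive with age, and nothing is read from these signs.

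**Figure D5:**
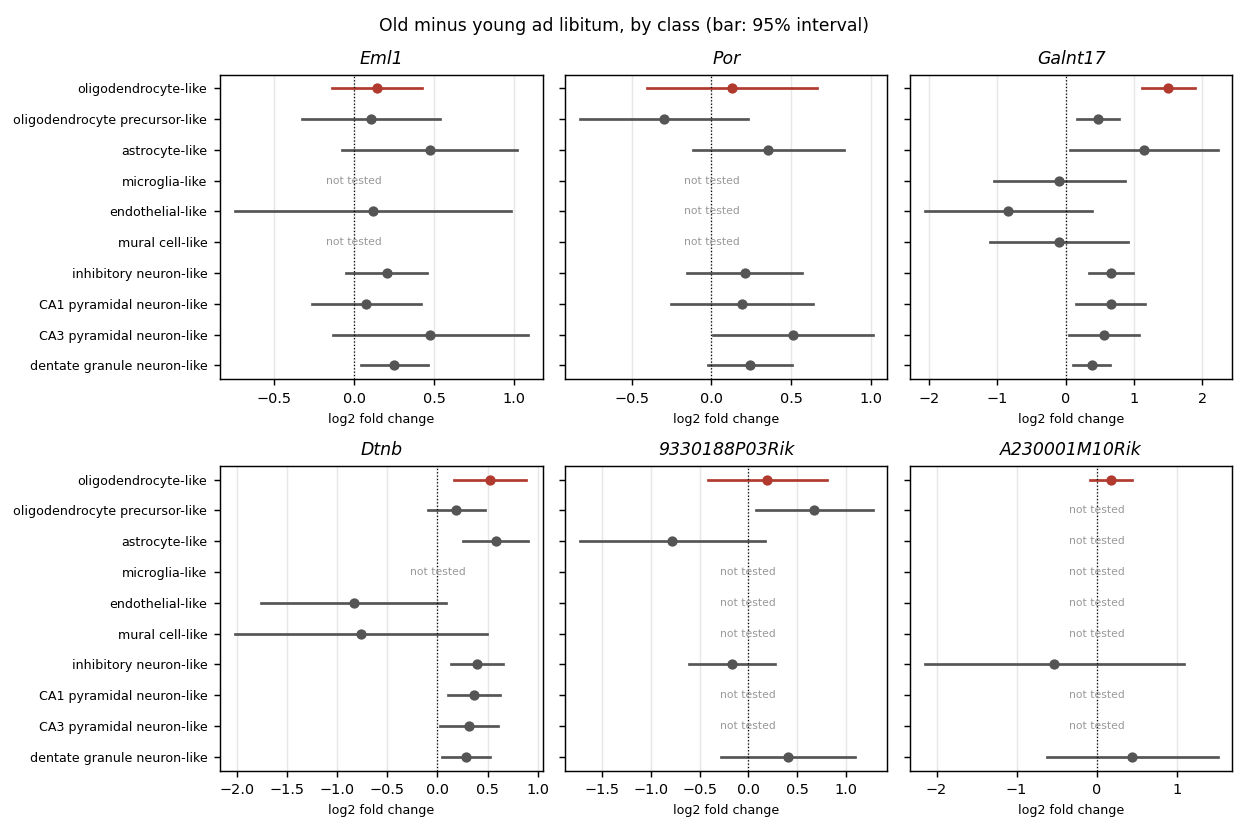
Log2 fold change of old minus young mice fed ad libitum (x axis) by class (y axis) for each gene, with its normal 95% interval as a bar and oligodendrocyte-like nuclei in red. Galnt17 in oligodendrocyte-like nuclei, at 1.50, was the only value called by edgeR.

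Among relatives of the members in oligodendrocyte-like nuclei, the other 5 EMAP-like genes passed the filter and none was called in any of the 4 contrasts by edgeR, with a median log2 fold change of 0.14 for long-term minus acute restriction (0.00 over all genes) and -0.08 for acute restriction minus old ad libitum (-0.01 over all genes). Of 26 P450 enzymes and partners, among them Cyp51, Sqle and Hmox2, 19 passed the filter and 0 were called between the restricted groups, where their median was 0.06. Cyp7b1, an oxysterol hydroxylase, rose with age (log2 fold change 1.06, SE 0.30, adjusted p 0.0269, edgeR) and was lower under long-term restriction than in old ad libitum mice (-0.97, SE 0.23, adjusted p 0.0481, edgeR). Of the 16 other GalNAc-transferase genes that passed, 0 were called in any contrast, and their ageing median was 0.23 against 0.01 over all genes. Of all genes, 7.85% were called with age, 2.01% between acute restriction and old ad libitum, 0.396% between long-term restriction and old ad libitum and 0.114% between the restricted groups, and nothing particular to these lists is read from counts of 0 or 1.

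In the dystrophin complex, 16 of the genes other than Dtnb passed the filter, and 4 rose with age while none fell, beside 3.66% of all genes called higher and 4.19% called lower. The granule, CA3 and subicular or cortical neuron and oligodendrocyte precursor marker lists were also higher in old libraries in these sums, and their part in these genes was not tested. As above, such sums can rest on few markers. Over all genes, the 892 ageing calls became 553 with the trend on gene length removed and 8 with median UMIs as a covariate. Sgcd, a sarcoglycan, rose by 2.11 (SE 0.41, adjusted p 0.00273, edgeR), Sntg1, a syntrophin, by 1.45 (SE 0.40, adjusted p 0.0418, edgeR), the laminin chain gene Lama2 by 0.58 (SE 0.14, adjusted p 0.0102, edgeR) and Dmd, dystrophin itself, by 0.51 (SE 0.14, adjusted p 0.0243, edgeR), all in log2 fold change. Lama2 fell by 0.59 on the log2 scale (SE 0.13, adjusted p 0.0128, edgeR) under acute restriction relative to old ad libitum mice, where Dtnb had 1.08 and 2.01% of all genes were called (0.396% between long-term restriction and old ad libitum). The median over these 16 genes was -0.27 in that contrast and 0.49 with age, against -0.01 and 0.01 over all genes, and none was called between long-term and acute restriction. In the acute contrast the precursor list was lower (168 to 174 against 235 to 256 CPM), as were the granule, inhibitory and Cajal-Retzius neuron and committed precursor lists. The CA3 list was higher, while its 7 markers other than Spock1 overlapped. The part of these lists in these values was not tested.

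Each member shares its locus with another annotated gene, and the use of strand in counting is not given in the sources used here, so reads of the partners could not be told apart. Dtnbos, antisense to Dtnb, had a log2 fold change of 1.88 (SE 0.35, adjusted p 0.00607, edgeR) under acute restriction and -1.02 (SE 0.31, adjusted p 0.370, edgeR, not called) for long-term minus acute, the same signs as Dtnb. Gm6145, which overlaps 9330188P03Rik on the opposite strand and leads the astrocyte-like cluster, had -1.01 (SE 0.42) and 0.85 (SE 0.41), also in the directions of its partner and without a call. Gm16596 overlaps Eml1 and Gm43091 overlaps Por, both on the opposite strand, and Gm43166 lies within Galnt17 and Gm43242 within A230001M10Rik on the same strand. The neighbour of Galnt17, Caln1, 24.7 kb away on the opposite strand, rose with age by 1.50 (SE 0.38, adjusted p 0.0131, edgeR), beside 7.85% of all genes called with age, and it had 0.07 (SE 0.29) between the restricted groups. Neuron marker lists were also higher in old sums, as given above, and their part in Caln1 was not tested. Cyp46a1 and Evl beside Eml1, Rhbdd2 and Tmem120a beside Por, and Asxl2 and Dnmt3a beside Dtnb were called in none of the 4 contrasts by edgeR.

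Likeness of patterns was described as Pearson's r of log2 CPM over the 13 oligodendrocyte-like sums, which share library and depth and include the restricted libraries that chose the members, among genes of mean log2 CPM of at least 5. Eml1 was most like A230001M10Rik (r = 0.92), then Fbn2 (r = 0.91) and Pcdh15 (r = 0.88). Dtnb was most like Dnm2 (r = 0.96), Gm13052 (r = 0.94) and Mllt3 (r = 0.93), and A230001M10Rik most like Kif3c (r = 0.93), then Eml1 and Dusp16 (r = 0.88). Galnt17 was most like Setbp1 (r = 0.93), Dgki (r = 0.92) and Ehmt1 (r = 0.91), and 9330188P03Rik most like Pcdh10 (r = 0.93), B230307C23Rik (r = 0.92) and Hook3 (r = 0.90). For Por the nearest were Plagl1 (r = 0.98), Dmxl1 (r = 0.97) and Rbm27 (r = 0.96), values that fell to 0.90, 0.84 and 0.68 without young library 1, where Por had 0 UMIs. Likeness between members follows in part from the rule that chose them and is no result.

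Marker lists of other classes were read in the same oligodendrocyte-like sums, since RNA of other cells can enter them. A summed level can rest on few markers: in young library 1, 3 of the 7 CA1 markers had a UMI and gave 3043 CPM. Markers other than Spock1 were not split out, and expression of a marker by oligodendrocytes themselves was not tested. Of 17 lists, 3 were higher under long-term than acute restriction without overlap, 1 was lower and 13 overlapped. The CA1 list (7 markers, 6 or 7 with a UMI in each library of these groups) summed to 2562 to 3635 CPM against 2003 to 2549, the inhibitory neuron list (11 markers, 7 to 11 with a UMI) to 2277 to 2641 against 1925 to 2099, and the list of committed precursors (7 markers, 4 to 7 with a UMI) to 1022 to 1171 against 880 to 1019. The CA3 list (8 markers, 6 to 8 with a UMI) was lower, 720 to 859 against 1001 to 1252 CPM, of which Spock1 alone gave 668 to 785 against 910 to 1184. Its other 7 markers summed to 51.5 to 95 CPM against 68.2 to 91.0, which overlapped. In at least 1 acute library every marker of these 4 lists had a UMI. Between acute restriction and old ad libitum, where the members' values also share these libraries, 1 list was higher (CA3), 5 were lower (granule, inhibitory and Cajal-Retzius neurons, precursors and committed precursors) and 11 overlapped. The 7 CA3 markers other than Spock1 overlapped here too, at 68.2 to 91.0 against 60.8 to 76.7 CPM. Between long-term restriction and old ad libitum, where Por was higher without overlap, the fibroblast list (10 markers, 1 to 7 with a UMI) was higher at 10.7 to 33.9 against 2.48 to 9.55 CPM, as was the macrophage list (7 markers, 0 to 4 with a UMI) at 3 to 9.23 against 0 to 1.45 CPM. The precursor list was lower at 153 to 193 against 235 to 256 CPM, and 14 lists overlapped. The astrocyte list, which bears on 9330188P03Rik and Por, summed to 403 to 604 CPM under long-term and 416 to 498 under acute restriction, with all 10 markers present in each. The part of these lists in the results was not tested.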

How the data were processed

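Nuclei of whole hippocampus from 13 libraries were profiled by 10x Genomics droplet sequencing. The authors deposited UMI counts per gene and barcode for 32285 genes, made with Cell Ranger 4.0.0 on mm10 per the submitters' processing notes. Intron and strand settings, removal of free RNA and removal of doublets by the authors are not given in the sources used here.

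Of 105759 barcodes, 105427 were retained for having 500 or more genes and a mitochondrial share of UMIs up to 5%. The highest Scrublet scores, 0.8% per 1000 barcodes in each library, were removed as doublets (7386). Leiden clustering (scanpy 1.11.5, leidenalg 0.10.2; 2000 variable genes, 30 components, 20 neighbours, resolution 1) gave 36 clusters, and 13 classes were named from marker lists by at least 3 raised markers and no more leading markers of another class. Names were rebuilt here and are written X-like. The members and the marker and family lists were chosen with earlier results of these data known.

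Counts were summed per library and class (at least 20 nuclei, at least 2 libraries in each group, 10 classes) and tested with edgeR 4.0.16 in R 4.3.3: TMM factors, filterByExpr, robust quasi-likelihood fits over all libraries with a sum, and Benjamini-Hochberg adjustment over all genes of a class, with calls at an adjusted p below 0.05. Fits held 13 libraries, except 9 in endothelial-like and 9 in mural cell-like nuclei. The scripts were tested on simulated data. Intervals were built from the edgeR SE with the normal quantile and are narrower than the quasi-likelihood test implies. DESeq2 1.42.0 was an alternative. Other alternatives were size factors of DESeq2, no filter, a replicate block, a term for or removal of libraries numbered 1, median UMIs as a covariate, doublets kept, only the groups compared, leaving out each library, thinning to 500 UMIs and a prior count of 0.5. Removal of the trend on gene length and likeness without young library 1 were chosen after seeing the data. Spans came from the GENCODE vM21 annotation of GRCm38, which matched 32235 genes.

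The text names the 6 members, the 3 genes most like each by correlation, annotated overlapping genes and neighbours, called genes of the family lists, and the other genes called between long-term and acute restriction.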

Additional observations from a re-analysis of the deposited data

Results flagged for a closer look

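In groups of 4 libraries, 2 values lay far from the 3 others of their group, both in long-term restriction replicate 3 and in dentate granule neuron-like nuclei. Dtnb measured 8.34 log2 CPM there against 8.05 to 8.08 in the other 3 libraries, and Eml1 measured 5.95 against 5.59 to 5.63. Of 37 such groups examined, chance would give 1.85.

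Galnt17 and Dtnb had fold changes of opposite sign in different classes, with no overlap between the groups in either class. In oligodendrocyte-like nuclei 22.9% of all genes had no overlap with age and 8.86% between long-term restriction and old ad libitum. That share was not worked out in the other classes, so nothing is read from the number of classes. With doublets removed, none of the endothelial-like values passed the test in edgeR, with an adjusted p of 0.965 for both genes with age and 0.99987 for Galnt17 under long-term restriction. With doublets kept, edgeR called Galnt17 there between long-term restriction and old ad libitum (1.85, adjusted p 0.0386) and between acute restriction and old ad libitum (1.86, adjusted p 0.0423, against 0.90 with doublets removed). The ageing log2 fold change of Galnt17 was -0.84 in endothelial-like nuclei, where old libraries had 7.73 and 8.22 and young libraries 8.39 and 9.001 log2 CPM, and positive without overlap in 4 classes. The groups overlapped in the other 5 classes tested, among them CA1 and CA3 pyramidal neuron-like and astrocyte-like nuclei. The gap to endothelial-like nuclei was 2.34 in oligodendrocyte-like, 1.50 in inhibitory neuron-like, 1.31 in oligodendrocyte precursor-like and 1.22 in dentate granule neuron-like nuclei. Between long-term restriction and old ad libitum, Galnt17 had 1.66 in endothelial-like nuclei (8.70 and 10.05 against 7.73 and 8.22) and -0.56 in oligodendrocyte-like nuclei, a gap of 2.22. Dtnb had an ageing value of -0.83 in endothelial-like nuclei (7.23 and 7.34 in old against 7.86 and 8.14 in young libraries) and positive values without overlap in 5 classes, none of them called by edgeR. Its gap to endothelial-like nuclei was 1.41 in astrocyte-like, 1.23 in inhibitory neuron-like, 1.199 in CA1 pyramidal neuron-like, 1.15 in CA3 pyramidal neuron-like and 1.12 in dentate granule neuron-like nuclei. These differences between classes were not tested, and endothelial-like nuclei numbered 381 in all, at most 84 per library, with 2 libraries of each ad libitum group in the fit.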

How the results depend on the processing

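Between long-term and acute restriction the log2 fold change of each member kept its direction in all 10 other settings and on leaving out any of the 13 libraries (9330188P03Rik from 1.17 to 1.68 over the latter). Leaving out 1 library ended the edgeR call in 8 of 13 cases for Por, 5 for Dtnb, 5 for Galnt17 and 4 for 9330188P03Rik (adjusted p up to 0.542). With only the groups compared none of these 4 was called, and DESeq2 gave no adjusted p for Por, Galnt17 and 9330188P03Rik. That contrast chose the members, so this supports nothing about them. In oligodendrocyte-like nuclei, the 892 genes called with age became 459 with DESeq2, 8 with median UMIs per nucleus as a covariate and 553 with the trend on gene length removed. Between acute restriction and old ad libitum, 229 became 130 with DESeq2, 407 without the filter on low counts, 347 with a term for libraries numbered 1, 36 with median UMIs and 443 with only the groups compared. Between long-term restriction and old ad libitum, 45 became 193 without the filter, 93 with the term for number 1, 6 with median UMIs and 27 with the length trend removed. Between long-term and acute restriction, 13 became 58, 27, 7 and 24 under those same settings, 35 without the libraries numbered 1 and 6 with only the groups compared.

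Replicate numbers were taken from the sample titles, and some other deposited names carry different numbers. Replicate numbers are shared by the groups, but same-numbered libraries did not deviate together in every pair: in oligodendrocyte-like sums r was 0.13 to 0.29 for number 1, -0.08 to 0.17 for number 2, -0.21 to 0.28 for number 3 and 0.29 for number 4. For number 1 all 6 pairs were over 0.1 in 8 of 10 classes, with r of 0.45 to 0.80 in granule neuron-like, 0.42 to 0.71 in inhibitory neuron-like and 0.33 to 0.56 in astrocyte-like sums, where the term for number 1 changed ageing calls. Pairs of different numbers had r of -0.27 to 0.29 in oligodendrocyte-like sums (10 of 47 over 0.1) and -0.68 to 0.70 in granule neuron-like ones (15 of 47). With a replicate block the calls were 375 for acute restriction against old ad libitum, 219 for long-term restriction against old ad libitum and 36 for long-term against acute restriction. The block also gave 2 members called with age, Galnt17 and Dtnb (adjusted p 0.0347, edgeR), and 4 member calls in other classes, Dtnb in astrocyte-like (adjusted p 0.0496, edgeR) and Galnt17 in inhibitory neuron-like (0.0252), precursor-like (0.0127) and granule neuron-like nuclei (0.0398). No filter likewise gave 2 members with age, Dtnb at an adjusted p of 0.0423 in edgeR.

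Member calls in other classes, 0 in the main analysis, were 2 with DESeq2, 2 without the filter, 3 with the term for number 1, 3 without the libraries numbered 1 and 2 with doublets kept (Galnt17 in endothelial-like nuclei). Those without number 1 were Galnt17 in astrocyte-like nuclei with age (1.69, adjusted p 0.00166, edgeR) and under long-term restriction (-1.77, adjusted p 0.00389, edgeR), and 9330188P03Rik with age (-0.91). Values near 0 changed sign: Eml1 with age was -0.035 with median UMIs and -0.23 with the length trend removed, A230001M10Rik -0.053 and -0.24, and Por -0.0053 with the length trend removed. For A230001M10Rik, long-term restriction minus old ad libitum was 0.0071 without number 1 and 0.027 with the length trend removed. The cause of these shifts was not tested.

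Leaving out 1 library at a time gave 121 to 978 calls with age, lowest without young replicate 2 (121), old ad libitum replicate 2 (327) and replicate 4 (586). Acute restriction against old ad libitum gave 82 to 266, with 82 and 105 without acute replicates 2 and 3 and 89 or 92 on dropping old ad libitum replicate 2 or 4. Long-term restriction against old ad libitum gave 5 to 170, highest without long-term replicate 3 and lowest without long-term replicate 2, with 14 without long-term replicate 4, 27, 10 and 10 on dropping old ad libitum replicate 1, 2 or 4 and 28 without acute replicate 2. Long-term against acute restriction gave 4 to 40, with 40 without long-term replicate 1, 7 without replicate 4, and 7, 4 and 5 without acute replicates 1, 2 and 3. Members called with age were 1 to 2, Dtnb joining without young replicate 1 (adjusted p 0.0397, edgeR), and calls in other classes 0 to 1, Galnt17 in astrocyte-like nuclei without old ad libitum replicate 1 (1.78, adjusted p 0.0192, edgeR). Depth limits Por, Galnt17 and 9330188P03Rik most, with 0, 2 and 1 UMIs in their smallest sums.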
